A study of Homo sapiens with 2 samples.

Results

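Kinesins are motor proteins that use ATP to move along microtubules. On the arrays, 41 genes of the family were chosen by their symbol, KIF with a number and at times a letter, or KIFC1 to KIFC3, among 19775 genes named by the platform's annotation, and measured by 85 of 41097 probe sets with a single symbol. The human cell line HEK293T, of embryonic kidney origin and carrying the SV40 large T antigen, was transiently transfected by means of polyethylenimine with pcDNA3.1-IRX1::GFP, which encodes the homeobox transcription factor IRX1 joined to GFP, or with pcDNA3.1-GFP, which encodes GFP alone (GFP control). RNA was taken 48 h later from cells sorted for GFP in both groups, and 1 HG-U133 Plus 2.0 array per condition was analysed here. The model is a cell line with a highly overexpressed transgene. The legend of the study speaks of replicates, and whether each array is 1 of them or a pool was not settled. With 1 array per condition there is no error between cultures and no test, and all folds below describe these 2 arrays.

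Mitotic kinesins build the spindle, move chromosomes or complete cell division, and their transcripts are made mainly in G2 and M phase of the cell cycle. Transport kinesins carry vesicles, organelles and RNA towards the cell periphery, many of them in neurons and cilia. In a dividing line such as HEK293T both classes are in use. The members fell into 14 mitotic, 17 transport and 10 other kinesin genes, measured by 21, 42 and 22 probe sets, where a probe set reads a stretch of transcript. Of these 85 probe sets, 31 carry a suffix for probes that several transcripts may share. For KIF4B, a mitotic kinesin, no signal was analysed here, only its promoter.

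The promoters of the mitotic members show a feature that the choice by symbol did not use. A pair of short promoter elements is known from cell cycle genes, the CCAAT box, bound by NF-Y, and the element TTTGAA, called CHR, through which the DREAM complex holds genes down until G2. They were searched on both strands and counted separately, since they can share an end base, in the 300 bases around each start site in RefSeq (GRCh38.p14, 250 bases before the start and 50 after), a table that held 43 such windows of 34 kinesin genes, KIF4B included. TTTGAA was in 10 of 16 windows of mitotic kinesins (62.5%), in 1 of 17 of transport kinesins (5.88%) and in 0 of 10 of the others, against 15.2% of all 35097 promoters. CCAAT was in 11 of 16 mitotic windows (68.8%), 5 of 17 transport windows (29.4%) and 4 of 10 others (40.0%), against 34.6% of all promoters. The motif ACANNTGT, known from studies of Iroquois proteins in flies and added after the values were seen, was in 0 of the 43 windows, against 5.62% of all promoters. A match is a description of the letters, not a bound site, and no match says only that these letters are not in the window.

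Of the sequences below, KIF20B and KIF18A carry both elements and were lower with IRX1::GFP, while KIF18B carries both and was slightly higher. KIF1C and KIF25, which were at least 2-fold higher, carry neither. These promoters were picked after the values were seen. KIF1C and KIF25 are from the transport and other kinesins, with TTTGAA in 1 of 17 and 0 of 10 windows. A link between the elements and the direction was not tested. The windows are chr10:89701340-89701639 (KIF20B, plus strand), chr11:28108107-28108406 (KIF18A, minus strand), chr17:44947724-44948023 (KIF18B, minus strand), chr17:4997700-4997999 (KIF1C, plus strand) and chr6:167997421-167997720 (KIF25, plus strand) of GRCh38.p14, each written 5′ to 3′ on the strand of its gene. Capitals mark CCAAT and TTTGAA on either strand.
KIF20B: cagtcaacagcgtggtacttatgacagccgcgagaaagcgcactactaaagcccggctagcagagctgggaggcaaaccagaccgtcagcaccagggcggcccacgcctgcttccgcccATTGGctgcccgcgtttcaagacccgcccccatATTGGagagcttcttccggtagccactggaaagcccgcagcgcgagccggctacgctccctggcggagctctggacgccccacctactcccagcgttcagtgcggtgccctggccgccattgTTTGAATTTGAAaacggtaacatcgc
KIF18A: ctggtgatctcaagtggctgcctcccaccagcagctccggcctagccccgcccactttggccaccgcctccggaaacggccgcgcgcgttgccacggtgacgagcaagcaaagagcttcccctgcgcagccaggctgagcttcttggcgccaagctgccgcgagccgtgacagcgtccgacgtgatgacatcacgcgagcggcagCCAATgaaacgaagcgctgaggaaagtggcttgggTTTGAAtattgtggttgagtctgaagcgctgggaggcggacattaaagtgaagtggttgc
KIF18B: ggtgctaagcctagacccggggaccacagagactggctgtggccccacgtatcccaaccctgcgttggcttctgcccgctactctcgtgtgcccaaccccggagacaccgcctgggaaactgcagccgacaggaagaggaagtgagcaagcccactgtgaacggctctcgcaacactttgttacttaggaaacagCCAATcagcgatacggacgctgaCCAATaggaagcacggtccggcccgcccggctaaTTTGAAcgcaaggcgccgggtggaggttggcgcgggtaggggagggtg
KIF1C: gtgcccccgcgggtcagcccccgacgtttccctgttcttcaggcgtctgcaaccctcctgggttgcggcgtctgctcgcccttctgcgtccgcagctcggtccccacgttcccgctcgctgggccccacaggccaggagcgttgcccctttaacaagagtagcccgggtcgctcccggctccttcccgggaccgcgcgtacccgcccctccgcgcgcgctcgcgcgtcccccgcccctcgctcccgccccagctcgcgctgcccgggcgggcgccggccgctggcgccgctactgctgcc
KIF25: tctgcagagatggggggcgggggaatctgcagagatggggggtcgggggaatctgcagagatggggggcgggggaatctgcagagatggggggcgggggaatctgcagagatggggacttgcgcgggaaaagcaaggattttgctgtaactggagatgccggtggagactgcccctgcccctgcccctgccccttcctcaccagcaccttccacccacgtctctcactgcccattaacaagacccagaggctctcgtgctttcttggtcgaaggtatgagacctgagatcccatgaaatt
In KIF20B, 2 copies of TTTGAA follow each other directly, 24 and 30 bases after the start site, and CCAAT reads on the other strand at 131 and 98 bases before it. KIF18A has CCAAT 45 bases and TTTGAA 10 bases before its start, and KIF18B has CCAAT 55 and 32 bases before and TTTGAA 2 bases after it.

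The values are MAS5 intensities, which are linear and were brought to the same scale on both arrays before deposit, and each gene is given by its brightest probe set, taken over both arrays. Signals of different probe sets are not levels that can be set against each other, so the comparison is between the arrays. Of the 41 genes, 33 were past a filter on low values, a mean signal of at least 183, which is the 50th percentile over all probe sets. A gene was called at 2-fold, and 4 of these 33 genes (12.1%), KIF1A, KIF1C, KIF25 and KIFC2, were higher by that much with IRX1::GFP, against 10.4% of all 12193 genes past the filter. KIF19 and KIF20B, 2 of 33 (6.06%), were lower by 2-fold or more in measured signal, against 5.34% of all genes. Both shares lie near those of all genes, and the counts are no result about the family. The median log2 ratio (IRX1::GFP over the control) was 0.10 for the 33 kinesin genes and 0.07 for all genes. The other 27 kinesin genes were within 2-fold. Nearest to the limit were KIF20B (-1.04), KIF1C (1.14) and KIFC2 (1.26) inside the calls, and KIF3C (0.73), KIF21A (-0.71) and KIF18A (-0.70) outside them.

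Some values of the whole series bear on all that follows. Background, the 90th percentile of 107 probe sets for olfactory receptors, was 179 with IRX1::GFP and 143 in the GFP control. Folds are left out where neither array exceeded it and are lower bounds where only 1 array did, with none given where that bound is under 1. The only IRX1 probe set read 57.0 with IRX1::GFP and 33.1 in the GFP control, both under background, and whether it lies in the transfected cDNA is not known. Of 8 genes set as HEK293 markers, all 8 were above background with IRX1::GFP and 6 in the GFP control (not PAX2 or LHX1), with summed signals of 53322 and 50813. Of the 7 past the filter 3 (PAX2, KRT18 and NEFL) were higher by 2-fold or more (42.9%, against 10.4% of all genes). The median log2 ratio was 0.94, while VIM, the most intense signal in the sums, read 28168 and 38213. PAX2 was past the filter only through its IRX1::GFP signal, and its bound was at least 1.94-fold higher, short of 2-fold. Of 7 markers of blood, endothelium and liver, 3 were above background with IRX1::GFP and 5 in the GFP control. Their summed signals were 1716 and 1356, and PTPRC and CDH5 were under background on both arrays. Of the 4 past the filter 1 was higher by 2-fold or more (25%), CD14 at 856 and 327, 2.62-fold higher. The ratio of the 3-prime to the 5-prime control probe set of ACTB, a sign of RNA quality, was 1.64 with IRX1::GFP and 3.23 in the GFP control, and that of GAPDH was 1.01 and 1.22. The part of RNA quality in the kinesin values was not tested. As a yardstick of noise within the pair, the SD of the log2 ratio between probe sets of one gene was 0.49 over 5930 genes and 0.48 within the 19 kinesin genes with more than 1 probe set past the filter. Isoforms add to this SD, whereas the variation from culture to culture is not in it.

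**Figure D1:**
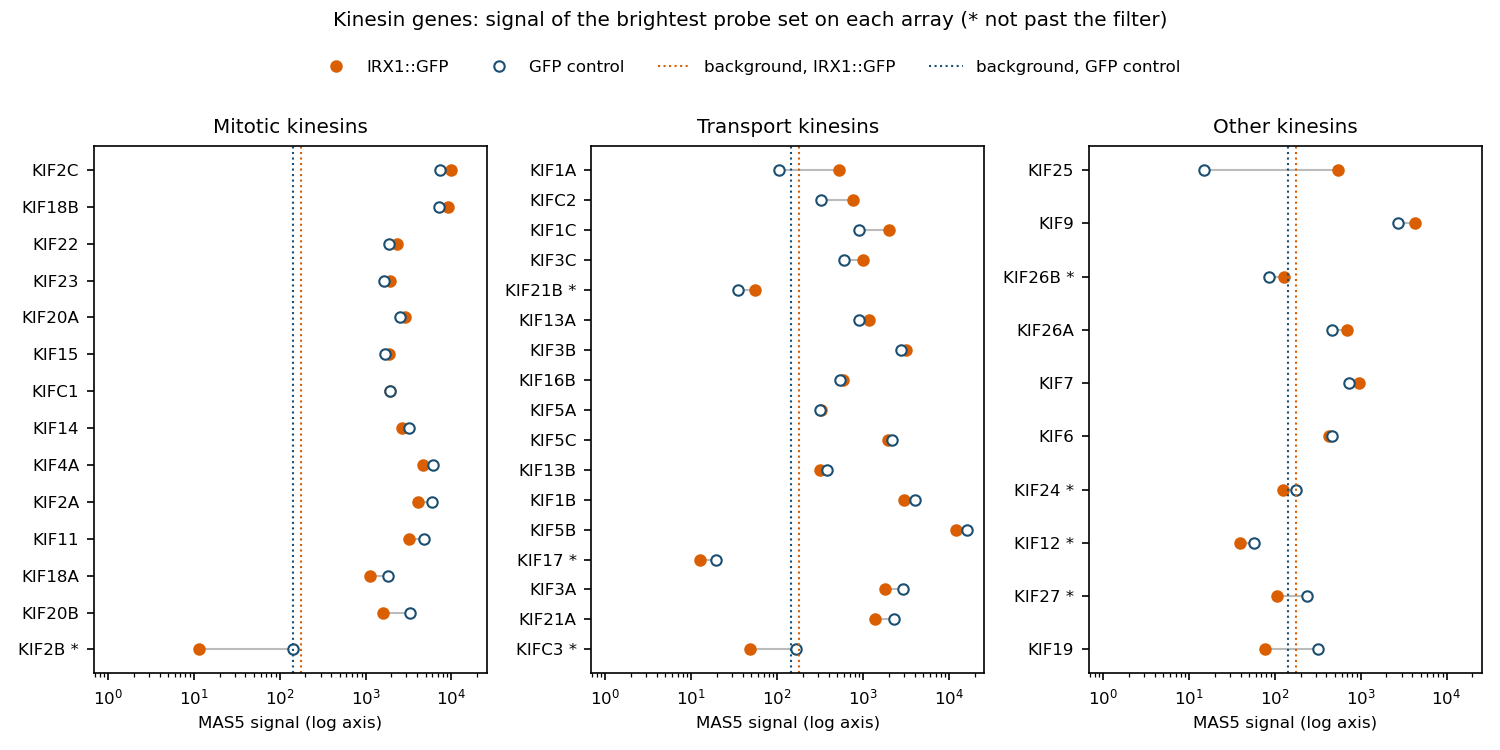
MAS5 signals (x, log axis) of the brightest probe set of each of the 41 kinesin genes with IRX1::GFP (filled) and in the GFP control (open), 1 array each, with dotted lines at the background of each array and an asterisk for the 8 genes not past the filter. The 13 mitotic kinesins past the filter lie far above background with most pairs of points close together or overlapping, while KIF1A and KIF25 cross background.

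Among the mitotic kinesins 13 of 14 were past the filter, and all 13 signals were above background on both arrays. None was at least 2-fold higher, against 10.4% of all genes, and 1, KIF20B, was at least 2-fold lower (7.69%, against 5.34%). Their median log2 ratio was -0.04, with 6 genes above 0 and 7 below, and 10 of 13 were within 1.5-fold. For KIF20B, fewer cells in G2 and M phase and less RNA per such cell cannot be told apart in bulk RNA.

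Spindle assembly rests on motors that push the poles apart. KIF11, the motor Eg5 that slides antiparallel microtubules, read 3185 with IRX1::GFP and 4809 in the GFP control, a log2 ratio of -0.59. KIF15, which can take over part of that work, read 1900 and 1673 (0.18). KIFC1, which moves to the minus end and clusters spindle poles, read 1904 and 1953 (-0.04). KIF11 thus lay 1.51-fold lower, little more than that SD between probe sets, 0.49, and the others moved less.

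Chromosome movement and microtubule length are set by another group. KIF18A, which dampens chromosome oscillations at the metaphase plate, read 1130 with IRX1::GFP and 1842 in the GFP control, 1.63-fold lower. KIF18B, its close relative that acts on astral microtubules, read 9171 and 7247, 1.27-fold higher. These relatives thus had opposite signs, -0.70 and 0.34 on the log2 scale. The microtubule depolymerase KIF2C (MCAK) read 9932 and 7271 on its brighter probe set and 2758 and 1764 on the other, higher by 0.45 and 0.64. The related KIF2A read 4038 with IRX1::GFP and 6017 in the GFP control (-0.58), but 461 and 465 on its other probe set (-0.01). Of the chromokinesins, which bind chromosome arms, KIF4A read 4624 and 6048 (-0.39), and KIF22 read 2309 and 1879 (0.30). The second KIF22 probe set read 951 and 447, a log2 ratio of 1.09. KIF2B, also of the depolymerase group, read 11.7 and 144 and was not past the filter, and no fold is given.

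The kinesins of the central spindle and of cytokinesis did not move together. KIF20B (MPP1), which acts late in cytokinesis, read 1588 with IRX1::GFP and 3257 in the GFP control, 2.05-fold lower, on its only probe set past the filter. Its log2 ratio of -1.04 lies just beyond the 2-fold limit, and was -0.997 after loess, just short of it. KIF20A (MKLP2), which brings Aurora B to the central spindle, read 2887 and 2521 (0.20). KIF23 (MKLP1), the motor of centralspindlin, read 1947 and 1660 (0.23), and KIF14, which works with citron kinase, read 2684 and 3195 (-0.25) and 1607 and 1455 (0.14) on its probe sets. KIF20B was therefore the single member of this set past 2-fold.

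Sorted by promoter, the 9 mitotic kinesins past the filter with TTTGAA had a median log2 ratio of -0.25, and the 4 without it (KIF20A, KIF22, KIF2A and KIF2C) one of 0.25. Both sets ranged widely, -1.04 to 0.34 with the element and -0.58 to 0.45 without it, so they overlapped over most of their range. For CCAAT the medians were -0.14 for the 10 genes with it and 0.18 for the 3 without it, with the same ranges. With so few genes, both groupings are descriptions only. Over the 29 kinesin genes past the filter with a promoter in the table, the GC percentage of the promoter and the log2 ratio had a Pearson correlation of -0.02 and a Spearman correlation of 0.11. Over 9968 genes the correlations were 0.15 and 0.14, across genes that share the same 2 arrays.

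**Figure D2:**
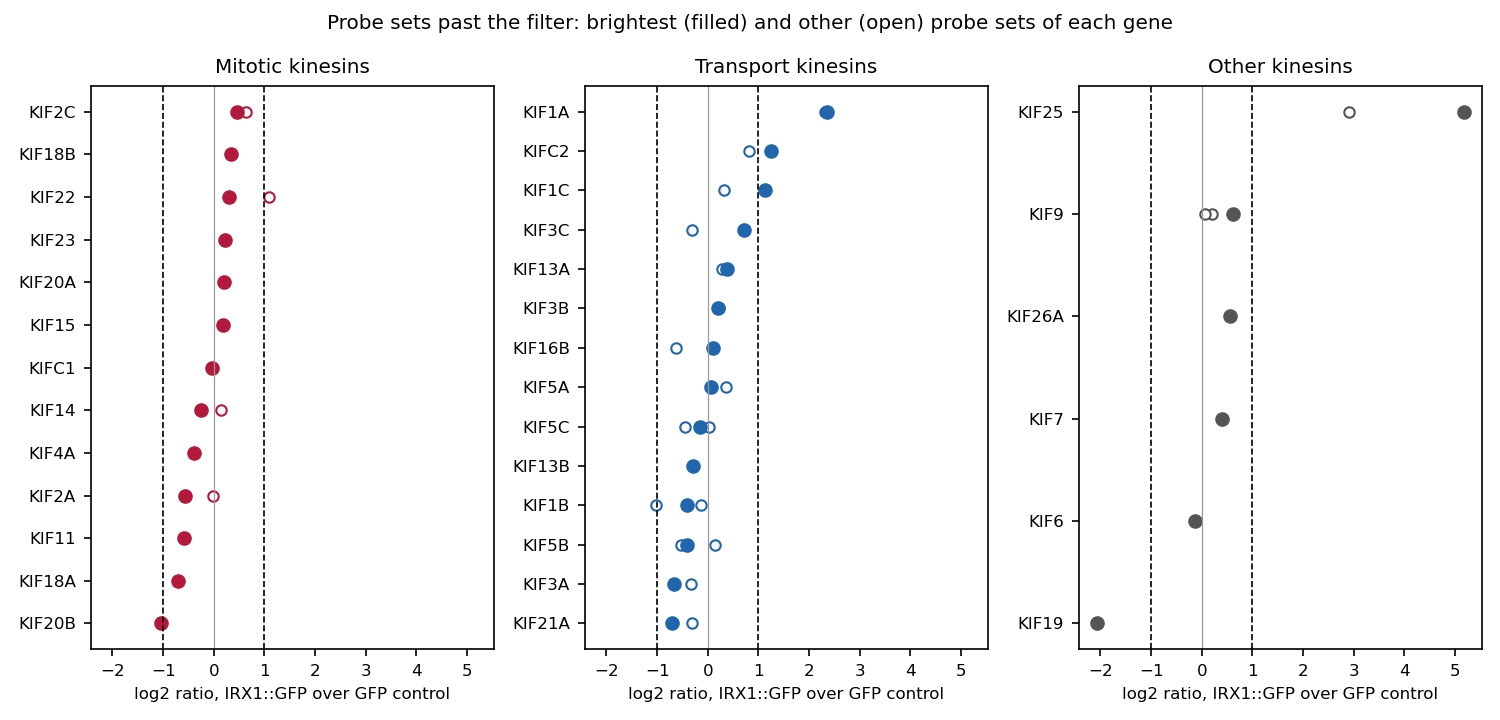
Log2 ratios, IRX1::GFP over the control (x), of the 57 kinesin probe sets past the filter, by gene, with the brightest probe set of a gene filled, the others open and dashed lines at 2-fold. KIF1A and KIF25 lie beyond the upper line on both of their probe sets, while KIFC2, KIF1C, KIF22 and KIF1B have probe sets on both sides of a 2-fold line.

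The partners of the mitotic kinesins ranged from -1.78 to 0.86 on the log2 scale, wider than the kinesins themselves. Of 18 spindle partners past the filter none was at least 2-fold higher, against 10.4% of all genes, and 1 was lower (5.56%, against 5.34%). Their median log2 ratio was -0.16, and 0.27 with only _at probe sets. Under median centring, loess and quantile normalization 2 were lower. The gene lower as reported was HMMR, a spindle pole protein that works with TPX2. It read 4177 with IRX1::GFP and 14297 in the GFP control, 3.42-fold lower. Its second probe set was lower too, at 1857 and 5434. TPX2, a spindle assembly factor that binds KIF11 and KIF15, read 3737 and 6740 (-0.85). PRC1, the bundling protein of the central spindle that recruits KIF4A, read 11546 and 17835 (-0.63), and RACGAP1, the partner of KIF23 in centralspindlin, 12193 and 13378 (-0.13). The chromosomal passenger genes, whose complex holds Aurora B, had log2 ratios above 0, at 0.24 for AURKB, 0.73 for INCENP, 0.29 for BIRC5 and 0.25 for CDCA8. A second AURKB probe set read 580 and 244 (1.25). Of 20 genes of G2 and M phase, CENPA was at least 2-fold higher (5%, against 10.4% of all genes), at 2141 and 926. Its probe set carries a suffix for shared probes, and with only _at probe sets none of the list was higher by 2-fold. None of the 20 was lower, against 5.34% of all genes. Their median was -0.03, beside -0.04 for the mitotic kinesins, but with only _at probe sets the medians were -0.32 and 0.086. CENPE, a kinetochore kinesin that the symbol rule leaves out, read 2700 and 2973 (-0.14).

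Among the transport kinesins 14 of 17 were past the filter. With IRX1::GFP 3 of them (KIF1A, KIF1C and KIFC2) were higher by 2-fold or more, 21.4% against 10.4% of all genes. None was lower by as much, against 5.34% of all genes. The median log2 ratio was 0.08, close to that of all genes. KIF1A was past the filter only through its IRX1::GFP signals, and KIF1C and KIFC2 each had another probe set within 2-fold. Over so few genes the count is no result about the class. Of the 14, 8 lay above 0 and 6 below.

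The kinesin-3 genes held the highest value of this class. KIF1A, the neuronal motor of synaptic vesicle precursors, read 531 with IRX1::GFP and 104 in the GFP control. The GFP control signal was under background, and KIF1A was at least 3.71-fold higher. Its second probe set gave 493 and 99.5, a log2 ratio of 2.31 beside 2.35, whereas another, under background on both arrays and not past the filter, read 57.9 and 130. The first 2 were past the filter only through their IRX1::GFP signals, so that both being higher is no added support, and the other one read lower. KIF1C, a motor of dense core vesicles and integrins, read 2000 and 908, 2.20-fold higher. Its other probe set past the filter gave 424 and 339, within 2-fold, and the log2 ratio of KIF1C was 0.73 as the mean of both. KIF1B, which carries mitochondria and synaptic vesicle precursors, went the other way. It read 3016 with IRX1::GFP and 4017 in the GFP control (-0.41), 1484 and 3018 on a second probe set (-1.02) and 597 and 651 on the third (-0.12). KIF13A, which moves endosomal cargo, was higher by 0.37, 0.35 and 0.28 on its 3 probe sets past the filter, at 1157 and 895 on the brightest. KIF13B read 311 and 383 (-0.30), and KIF16B, a motor of early endosomes, 584 and 546 (0.10) and 339 and 525 (-0.63).

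The heavy chains of conventional kinesin were within 2-fold on every probe set past the filter. KIF5B, the form found in all tissues, read 12015 with IRX1::GFP and 16035 in the GFP control (-0.42), 8591 and 12381 (-0.53), and 1138 and 1034 (0.14). The neuronal form KIF5C read 1970 and 2189 (-0.15), 757 and 744 (0.03) and 218 and 298 (-0.45). KIF5A, also neuronal, read 326 and 312 (0.06) and 326 and 253 (0.36). The light chain genes, whose products link KIF5 to cargo, had log2 ratios of 0.23 for KLC1, 0.74 for KLC2, 0.50 for KLC3 and 0.59 for KLC4 on their brightest probe sets, though another probe set of KLC3 read 79.0 and 599, at least 3.35-fold lower. Light and heavy chain genes thus had opposite signs for KIF5B, all within 2-fold on the brightest probe sets.

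Kinesin-2 is a trimer of KIF3A, KIF3B or KIF3C and the adaptor KIFAP3, known for intraflagellar transport in cilia. KIF3A read 1812 with IRX1::GFP and 2887 in the GFP control (-0.67) and 1716 and 2151 (-0.33). KIFAP3 read 1908 and 2839 (-0.57), lower like KIF3A. KIF3B read 3203 and 2784 (0.20) and 2636 and 2261 (0.22), while the KIF3C probe sets disagreed, at 990 and 599 (0.73) and 254 and 314 (-0.31). The subunits of this motor did not share a sign.

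Of the other transport motors, KIF21A, which restrains microtubule growth at the cell cortex, read 1393 with IRX1::GFP and 2282 in the GFP control (-0.71) and 264 and 326 (-0.31). KIFC2, a minus-end motor, read 765 and 320, 2.39-fold higher. Its second probe set gave 680 and 388, a log2 ratio of 0.81, within 2-fold but on the same side. KIFC2 kept at least 2-fold as the mean of both, at 1.03 on the log2 scale. KIF17, KIF21B and KIFC3 were not past the filter.

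Adaptors and binding proteins of transport kinesins were set beside them. In the list of light chains and adaptors, 17 genes were past the filter, with a median log2 ratio of 0.15. Of these, 1 gene lay beyond 2-fold in each direction, 5.88% each way against 10.4% higher and 5.34% lower of all genes. Averaging the probe sets of each gene gave a median of -0.080, and none was then lower by 2-fold. The filter at the 75th percentile left none higher, while only _at probe sets gave 2 higher and 1 lower. MAPK8IP2 (JIP2), a scaffold that binds light chains, read 1223 with IRX1::GFP and 453 in the GFP control, 2.70-fold higher, but 566 and 449 on its other probe set. SPAG9 (JIP4), a scaffold between kinesin, dynein and vesicles, read 6086 and 13369, 2.20-fold lower, and 4 further SPAG9 probe sets were lower as well, with log2 ratios of -0.32 to -1.02. KIFBP, which binds and blocks several kinesins, read 4773 and 6033 (-0.34).

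The 10 other kinesins act in cilia and signalling or are little studied, and 6 were past the filter. KIF25, a minus-end motor of the kinesin-14 group reported to restrain centrosome separation, read 548 with IRX1::GFP and 15.2 in the GFP control, and 329 and 43.7 on its second probe set. Both GFP control signals were under background, and the brighter probe set was at least 3.82-fold higher. These probe sets were past the filter only through their IRX1::GFP signals, so that both being higher is no added support. The log2 ratio of the measured signals, 5.17, rests on a control signal far under background, and with a floor on low signals it was 1.59, beside 1.54 for KIF1A. Both KIF25 probe sets carry a suffix for probes shared with other transcripts, so another transcript may add to them. The 3 probe sets of KIF25-AS1, an antisense gene at this locus, stayed under background on both arrays, at 6.06 to 70.4 with IRX1::GFP and 7.46 to 29.9 in the GFP control.

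KIF19, which shortens microtubules at the tip of motile cilia, read 76.6 with IRX1::GFP, under background, and 321 in the GFP control. It was at least 1.80-fold lower, and its measured log2 ratio was -2.07. The second KIF19 probe set read 6.48 and 18.4, far under background, so the value rests on 1 probe set. The brighter probe set was past the filter only through its GFP control signal. KIF7, a regulator of Hedgehog signalling at the tip of the primary cilium, read 954 and 724 (0.40). KIF26A, an atypical kinesin of signalling pathways, read 692 and 469 (0.56). KIF9, a kinesin of motile cilia, read 4248 and 2759 (0.62), 1131 and 988 (0.20) and 767 and 737 (0.06), all on probe sets with shared probes. KIF6 read 425 and 467 (-0.13). Apart from KIF19 and KIF25, these genes lay within 2-fold.

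The 8 genes not past the filter were KIF2B, KIF12, KIF17, KIF21B, KIF24, KIF26B, KIF27 and KIFC3, with signals between 11.7 and 236 over both arrays. Of these only KIF27, a relative of KIF7, allowed a bound. It read 105 with IRX1::GFP and 236 in the GFP control, at least 1.32-fold lower. KIFC3 read 47.8 and 165, and KIF24, a regulator of centrioles and cilia, 124 and 177, both with no fold.

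Agreement between probe sets limits single values. Of 19 kinesin genes with more than 1 probe set past the filter, 14 had the same sign on all of them and 15 had all on the same side of 2-fold. Genes with all of them within 2-fold count among the 15, and only KIF1A and KIF25 had all of theirs beyond it. The exceptions at 2-fold were KIF1B, KIF1C, KIF22 and KIFC2. Where every probe set past the filter had to pass 2-fold, KIF1A and KIF25 were higher and KIF19 and KIF20B lower, the last 2 with 1 probe set each. The probe sets of KIF1A and KIF25 were past the filter only through their IRX1::GFP signals, and that of KIF19 only through the GFP control. For KIF1A, KIF25 and KIF19 this agreement is therefore no added support.

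**Figure D3:**
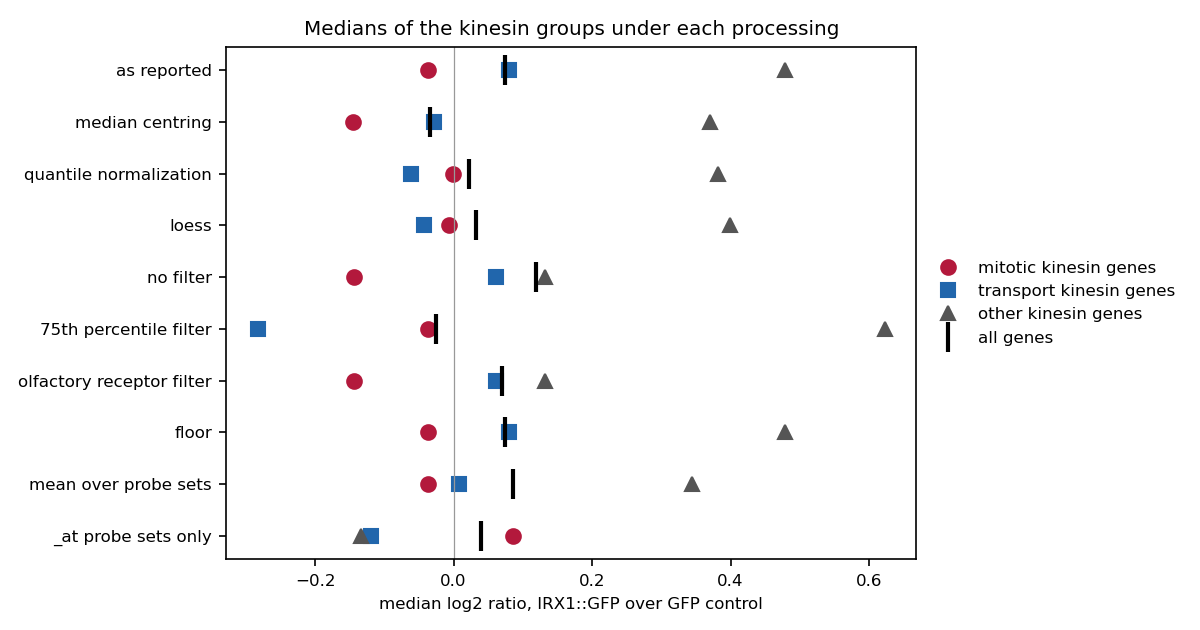
Median log2 ratio, IRX1::GFP over the control (x), of the mitotic, transport and other kinesin genes and of all genes, under the processing reported and 9 alternatives, of which the olfactory receptor filter is the one at background. The mitotic median stays between -0.14 and 0.09, the transport median between -0.28 and 0.08, and that of the other kinesins between -0.13 and 0.62, over 6 genes as reported.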

How the data were processed

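RNA of GFP-sorted HEK293T cells, 1 array with IRX1::GFP and 1 with GFP alone, was measured on HG-U133 Plus 2.0 arrays. The authors deposited 1 linear intensity per probe set, made with MAS5 per the submitters’ processing notes; no version or target is given in the sources used here. Both arrays had a mean of 1000 once 2% of values were dropped at either end, and the median was 195 with IRX1::GFP and 171 in the GFP control. The number of arrays limits the precision.

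Of 54675 probe sets, 41097 had 1 gene symbol in the platform annotation, 1801 several and 11777 none here. Symbols were updated through the RefSeq gene table of GRCh38.p14, where 41043 were found. For each gene the brightest probe set over both arrays was taken, with a filter at the 50th percentile, and its log2 ratio (IRX1::GFP over the control) was called at 2-fold without a test. Every kinesin gene past the filter is named, and at most 4 members of each partner list, those beyond 2-fold; other partner genes were named after their values were seen. The members and lists were chosen with earlier results of these data known, and the promoters shown after their values were seen. The planned search for the ATP site in kinesin proteins was not run.

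Alternatives were median centring, quantile normalization, loess (span 0.3), leaving the filter out, filtering at the 75th percentile or at background, a floor on low signals, the mean over probe sets, and only _at probe sets. A call only where every probe set passed 2-fold was added after seeing the data. The calls at 2-fold were tried on simulated data, with changes well beyond 2-fold only. Calls near the limit, the bounds, the alternatives and the promoter search were not covered. Python 3.11.15, numpy 2.4.6, pandas 2.3.3, statsmodels 0.14.6 and matplotlib 3.10.9 were used.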

Additional observations from a re-analysis of the deposited data

Results flagged for a closer look

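A signal outside the comparisons above was that of KIF23-AS1, an antisense gene at the KIF23 locus. Its only probe set read 181 with IRX1::GFP, just above the background of 179, and 10.5 in the GFP control, at least 1.26-fold higher. It was not past the filter.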

How the results depend on the processing

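With 1 array per condition no array could be left out, and depth is set by signal over background. No paired analysis was possible because there was a single array per condition and no test. The 4 higher and 2 lower kinesin genes were the same genes under median centring and quantile normalization, and median centring shifted all log2 ratios by 0.11. With a filter at the 75th percentile 1 of 22 kinesin genes was higher (KIF1C) and 1 lower (KIF20B), 4.55% each. Of 7678 genes 513 (6.68%) were higher and 415 (5.41%) lower. Without a filter 4 of 41 kinesin genes (9.76%) were higher, against 3456 of 19775 genes (17.5%). Lower were 5 (12.2%), adding KIF27, KIF2B and KIFC3, against 1983 (10.0%) of all genes. The filter at background also gave 5 lower, which is 5 of 37 kinesin genes (13.5%) against 941 of 13509 genes (6.97%). KIF19, KIF27, KIF2B and KIFC3 passed that filter only through their GFP control signals, so that their being lower is no support. By the bounds KIF27 was at least 1.32-fold lower, and KIF2B and KIFC3 have no fold. Loess, the floor and only _at probe sets each left 1 lower kinesin gene, which is 3.03%, 3.03% and 4%. The shares of all genes were 5.65%, 4.89% and 5.83%. KIF20B was lost under loess and KIF19 under the floor, and KIF20B had no _at probe set past the filter. Where every probe set had to pass 2-fold, 2 of 33 kinesin genes were higher (KIF1A and KIF25) and 2 lower (KIF19 and KIF20B), 6.06% each. Of 12193 genes 1019 (8.36%) were higher and 401 (3.29%) lower. Of these kinesin genes, only KIF20B was past the filter through the signals of both arrays. As the mean over probe sets KIF1C was no longer beyond 2-fold. The mitotic median was -0.14 under median centring, without a filter and with the filter at background, and 0.086 with only _at probe sets. The transport median changed sign, to -0.28 with the filter at the 75th percentile, -0.12 with only _at probe sets, -0.043 after loess, -0.028 after median centring and -0.062 after quantile normalization, while the median of all genes was -0.034 after median centring. The median of the other kinesins was 0.62 with the filter at the 75th percentile, -0.13 with only _at probe sets, 0.34 as the mean over probe sets, 0.37 after median centring, and 0.13 without a filter and with the filter at background. No kinesin gene beyond 2-fold changed sign. With the floor, the log2 ratio was 1.54 for KIF1A, 1.59 for KIF25 and -0.82 for KIF19. Apart from the values given, the cause was not tested.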

Other observations

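Dynein, the motor that moves towards the minus end, and tubulin, the track itself, were also on the arrays. Among cytoplasmic dynein and dynactin genes, 28 past the filter, 1 gene lay beyond 2-fold in each direction. That is 3.57% each way, against 10.4% and 5.34% of all genes, and the median log2 ratio was -0.03. HOOK2, an adaptor between dynein and cargo, read 1502 with IRX1::GFP and 569 in the GFP control, 2.64-fold higher, and DYNC1I2, a dynein intermediate chain, read 4234 and 8775, 2.07-fold lower. Among 14 tubulin genes, 2 were higher by 2-fold or more (14.3%) and 1 was lower (7.14%), against 10.4% and 5.34% of all genes. Their median was 0.47, against 0.07 for all genes, with 12 of 14 above 0, against 6600 of 12193 genes. TUBB3, the tubulin typical of neurons, read 22943 and 9671, 2.37-fold higher, and 17170 and 6452 on a second probe set. TUBA4A read 2182 and 893, 2.44-fold higher, and TUBA1A 8474 and 17533, 2.07-fold lower. Tubulin genes are close copies of each other and probe sets with shared probes may read several of them. The tubulin median was 0.26 with the filter at the 75th percentile, 0.35 without a filter, 0.36 after median centring and 0.64 with only _at probe sets, where 1 gene was higher by 2-fold or more and none was lower. The median of 11 reference genes was 0.22. STARD9, a kinesin outside the symbol rule, read 496 and 309, 1.60-fold higher.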
